A study of Mus musculus with 6 samples.

Results

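The genes described here encode the enzymes and machines that modify or move chromatin: histone demethylases, methyltransferases, acetyltransferases and deacetylases, ATP-dependent remodellers, proteins that read histone marks, and the enzymes that write or oxidise DNA methylation. They were chosen by name, as autosomal protein-coding mouse genes whose symbol begins with Kdm, Kmt, Setd, Hdac, Kat, Smarc, Arid, Brd, Chd, Phf, Dnmt or Tet followed by a digit or subunit letter, and 115 of 20665 autosomal protein-coding genes met that rule. The rule left out Setd3 and 8 matching symbols on the sex chromosomes, and it takes in Brd3os and Brd8dc, whose symbols meet it although they are genes distinct from Brd3 and Brd8. The rule itself uses no measured value, but it was set with earlier results of these data known.

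Chromatin accessibility was profiled by ATAC-seq, which uses the Tn5 transposase to cut and tag DNA that nucleosomes do not cover, in pancreatic islets, the hormone-secreting cell clusters of the pancreas, isolated at 16 weeks of age. Each of 3 groups held 2 libraries. The knockout-Acsl4 islets came from the βRicKO line, which lacks Rictor in beta cells, and were infected ex vivo for 48 h with an adenovirus that overexpresses Acsl4, a ligase that couples long polyunsaturated fatty acids to coenzyme A. The knockout-GFP islets came from the same βRicKO line and received a GFP adenovirus, and the control-GFP islets were labelled wildtype and received that GFP adenovirus as well. Both knockout groups therefore share the loss of Rictor, an essential subunit of mTOR complex 2, and no group was free of adenovirus. The deletion is aimed at beta cells, and islets hold other endocrine cells too, with a Cre driver that the labels do not name. About 50 islets were lysed per library and the DNA was amplified with 12 PCR cycles. The labels are silent on whether separate mice stand behind each group's libraries, so the p-values below measure the spread between these libraries, which may be technical.

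Histone-modifying enzymes add or remove acetyl and methyl groups on histone tails; acetyltransferases and many methyltransferases are found at active promoters, whereas deacetylases and H3K9 or H4K20 methyltransferases are better known for silencing. Remodellers of the SWI/SNF and Chd families spend ATP to slide or evict nucleosomes. In beta cells this machinery is known for keeping insulin and maturity genes accessible and genes of other cell types shut. Most of these genes are themselves expressed widely, from promoters rich in CpG dinucleotides.

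The authors deposited a list of peaks, meaning stretches of locally enriched reads, for every library. A gene is called marked in a library when a peak of that library overlaps the 1000 bp on either side of either gene end by at least 1 bp, and such a peak is called a gene-end peak. The lists held 525 and 5874 peaks in the knockout-Acsl4 libraries, 2206 and 4257 in the knockout-GFP libraries, and 4442 and 1628 in the control-GFP libraries. The sources used here give no read depth. The second knockout-Acsl4 library stood apart, since 5.23% of its peaks lay at a gene end, against 35.6% in the other knockout-Acsl4 library, 66.9% and 74.8% in knockout-GFP, and 69.2% and 21.7% in control-GFP. Of 15 endocrine marker genes, Nkx6-1 and Mafa were marked in knockout-GFP library 2 and control-GFP library 1, Pcsk2 was marked in control-GFP library 1, and the other 12, including Ins1, Ins2, Gcg and Sst, were marked in none. Of 12 acinar and ductal markers 1 was marked, in knockout-GFP library 2, and none of 12 endothelial, stromal and immune markers was marked in any library. Peaks at these defining genes thus carried little information on the cell make-up of the libraries. Rictor had no gene-end peak in any of the 6 libraries, and a peak list cannot check the deletion.

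Promoters of 7 members are shown first, because the results below turn on them. Kmt5c, Smarca4 and Arid4b were marked in more libraries than nearly all other members, Phf12 had the best ranked peaks among the genes marked in knockout-GFP but not in control-GFP, Tet2 was the sole marked gene of the DNA methylation class, and Dnmt3a and Dnmt1 were marked nowhere. Each window holds 250 bases before and 50 after a start site listed by RefSeq on GRCm38.p6, written 5′ to 3′ on the gene's strand: chr7:4739877-4740176 (plus strand) for Kmt5c, chr9:21615919-21616218 (plus) for Smarca4, chr13:14063534-14063833 (plus) for Arid4b, chr11:77982566-77982865 (plus) for Phf12, chr3:133544341-133544640 (minus) for Tet2, chr12:3806730-3807029 (plus) for Dnmt3a and chr9:20959839-20960138 (minus) for Dnmt1. Dnmt3a and Dnmt1 each have 3 listed windows, of which 1 is shown, for Dnmt1 the window at the outer gene end. Capitals mark every match, on either strand, to any of 8 promoter motifs that are named after the sequences.
Kmt5c: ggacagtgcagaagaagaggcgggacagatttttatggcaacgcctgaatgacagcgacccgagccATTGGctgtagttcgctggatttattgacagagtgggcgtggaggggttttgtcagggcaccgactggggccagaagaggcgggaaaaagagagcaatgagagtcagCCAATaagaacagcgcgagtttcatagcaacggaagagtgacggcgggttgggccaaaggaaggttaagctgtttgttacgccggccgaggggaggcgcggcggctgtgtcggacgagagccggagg
Smarca4: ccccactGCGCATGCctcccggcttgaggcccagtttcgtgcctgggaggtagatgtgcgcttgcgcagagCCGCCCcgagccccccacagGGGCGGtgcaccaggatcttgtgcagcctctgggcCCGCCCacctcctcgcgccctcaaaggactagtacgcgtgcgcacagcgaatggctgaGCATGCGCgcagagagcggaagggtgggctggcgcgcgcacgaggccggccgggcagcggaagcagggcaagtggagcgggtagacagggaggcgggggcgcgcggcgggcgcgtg
Arid4b: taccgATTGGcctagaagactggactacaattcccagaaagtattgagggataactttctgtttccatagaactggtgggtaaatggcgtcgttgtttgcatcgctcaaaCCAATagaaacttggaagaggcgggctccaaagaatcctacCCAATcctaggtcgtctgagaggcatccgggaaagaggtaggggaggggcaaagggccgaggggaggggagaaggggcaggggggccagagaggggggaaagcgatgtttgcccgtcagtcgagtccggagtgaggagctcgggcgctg
Phf12: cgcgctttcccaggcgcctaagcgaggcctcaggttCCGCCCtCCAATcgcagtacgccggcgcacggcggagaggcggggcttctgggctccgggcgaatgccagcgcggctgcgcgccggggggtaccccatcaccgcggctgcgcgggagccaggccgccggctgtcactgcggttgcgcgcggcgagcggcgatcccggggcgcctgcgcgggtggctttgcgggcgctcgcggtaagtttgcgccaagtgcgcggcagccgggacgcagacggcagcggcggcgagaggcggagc
Tet2: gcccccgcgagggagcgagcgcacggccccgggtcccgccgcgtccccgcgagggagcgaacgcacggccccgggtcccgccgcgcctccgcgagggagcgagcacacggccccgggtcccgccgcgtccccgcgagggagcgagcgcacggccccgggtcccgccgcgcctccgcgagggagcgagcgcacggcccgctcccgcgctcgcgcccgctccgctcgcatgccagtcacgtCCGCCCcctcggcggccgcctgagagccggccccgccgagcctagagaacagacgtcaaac
Dnmt3a: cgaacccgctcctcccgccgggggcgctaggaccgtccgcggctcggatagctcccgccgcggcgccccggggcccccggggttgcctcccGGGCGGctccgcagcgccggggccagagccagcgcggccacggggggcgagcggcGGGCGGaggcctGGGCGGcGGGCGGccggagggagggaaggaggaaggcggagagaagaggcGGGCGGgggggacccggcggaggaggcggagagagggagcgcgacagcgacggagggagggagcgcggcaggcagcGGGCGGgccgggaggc
Dnmt1: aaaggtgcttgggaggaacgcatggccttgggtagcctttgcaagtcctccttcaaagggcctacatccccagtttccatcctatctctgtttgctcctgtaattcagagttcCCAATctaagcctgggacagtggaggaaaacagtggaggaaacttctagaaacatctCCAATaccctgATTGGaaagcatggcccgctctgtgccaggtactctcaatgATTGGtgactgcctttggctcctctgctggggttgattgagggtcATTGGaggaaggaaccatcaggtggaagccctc

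The motifs searched were GGGCGG for the GC box, CCGGAAG for the ETS site, GCATGCGC for the NRF1 core, CCAAT for the CCAAT box, TGACGTCA for the cyclic AMP response element, AAGATGGCG for the YY1 site, CACGTG for the E box and TATAAA for the TATA box. A GC box read on the opposite strand can overlap a CCAAT box in its last letters, which happened in none of the 7 windows. The Kmt5c window held CCAAT boxes on both strands and no GC box, while the Smarca4 window held 3 GC boxes and 2 NRF1 cores. Arid4b had 3 CCAAT boxes, and Phf12 had a GC box beside a CCAAT box. The unmarked Dnmt3a window held 6 GC boxes and 46 CpG, with an observed over expected CpG ratio of 0.964, and the other listed Dnmt3a windows had ratios of 1.06 and 0.468. The Dnmt1 window shown held 2 CpG, a ratio of 0.101 and 5 CCAAT boxes, whereas the other listed Dnmt1 windows held 33 and 12 CpG, at ratios of 0.910 and 0.5. A match describes letters only and does not show that a factor binds.

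Members were marked about as often as the mean gene in 1 knockout-Acsl4 library and around 2 times as often in each of the knockout-GFP and control-GFP libraries. In the knockout-Acsl4 libraries 2 and 2 members had a gene-end peak, which is 1.74% of 115 in each (95% exact interval 0.211% to 6.14%), beside 1.08% and 1.65% of all genes. In the knockout-GFP libraries 19 and 43 members were marked, 16.5% (10.3% to 24.6%) and 37.4% (28.5% to 46.9%), beside 8.64% and 18.2% of all genes. In the control-GFP libraries 40 and 5 members were marked, 34.8% (26.1% to 44.2%) and 4.35% (1.43% to 9.85%), beside 17.3% and 2.12% of all genes. The share among members divided by the share among all genes was 1.61 and 1.05 in knockout-Acsl4, 1.91 and 2.06 in knockout-GFP, and 2.01 and 2.05 in control-GFP. The intervals cover counting error over genes only. In whole islets, fewer cells of a type and less accessible DNA per cell cannot be told apart.

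**Figure D1:**
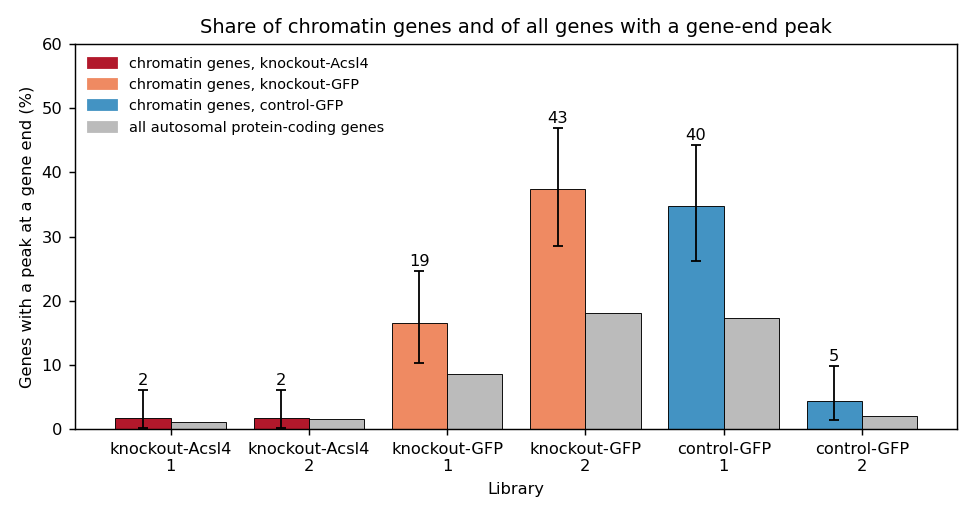
Share of genes with a gene-end peak (y axis, %) in each of the 6 libraries (x axis), for the 115 chromatin genes (coloured bars, with the number marked above and 95% exact binomial intervals as error bars) and for all 20665 autosomal protein-coding genes (grey bars). The coloured bar is about 2 times the grey bar in the knockout-GFP and control-GFP libraries, and the libraries within each GFP group differ widely, at 19 and 43 members in knockout-GFP and 40 and 5 in control-GFP.

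Within each GFP group the libraries differed by more than the means of the GFP groups did. The mean share of members marked was 1.74% ± 0 in knockout-Acsl4, 27.0% ± 14.8 in knockout-GFP and 19.6% ± 21.5 in control-GFP (SD, n = 2 each). Knockout-GFP exceeded control-GFP by 7.39 percentage points (two-sided exact permutation test, p = 0.667), where all genes gave 3.70 points, and the groups overlapped. The sign of that difference was negative without knockout-GFP library 2, at -3.04 points, and without control-GFP library 2, at -7.83 points. Knockout-Acsl4 minus knockout-GFP was -25.2 points (exact p = 0.333), where all genes gave -12.0 points. Knockout-Acsl4 minus control-GFP was -17.8 points (exact p = 0.333), where all genes gave -8.33 points. Without control-GFP library 1 that difference was -2.61 points. With every list cut to its best 525 peaks the differences shrank to -5.65 points for knockout-Acsl4 minus knockout-GFP, -2.17 for knockout-Acsl4 minus control-GFP and 3.48 for knockout-GFP minus control-GFP. In both comparisons of knockout-Acsl4, with the full lists, every knockout-Acsl4 library lay below every GFP library, and 0.333 is the smallest p that 2 libraries against 2 can give. Knockout-Acsl4 library 1 also had the shortest list and knockout-Acsl4 library 2 the lowest gene-end share, and the part of either in these differences was not tested.

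In all, 56 members (48.7%) were marked in at least 1 library, beside 25.5% of all genes, and 59 were marked in none. Leaving out both knockout-Acsl4 libraries and control-GFP library 2 left 55 marked. Marks in 3 or more libraries were held by 15 members (beside 6.89% of all genes), and in 4 libraries by 4 members (3.48%, beside 1.71% of all genes with 4 or more). No member was marked in 5 or 6 libraries, where all genes had 45 and 3. The sets were largely nested. All 19 members of knockout-GFP library 1 were among the 43 of knockout-GFP library 2, and all 5 of control-GFP library 2 were among the 40 of control-GFP library 1. Over all genes, 80.8% of those marked in knockout-GFP library 1 were also marked in knockout-GFP library 2. Of all genes marked in control-GFP library 2, 79.5% were also marked in control-GFP library 1. The longest gene-end lists of the GFP groups, knockout-GFP library 2 and control-GFP library 1, shared 28 members, which is 65.1% of the knockout-GFP set and 70.0% of the control-GFP set. For all genes these shares were 67.1% and 70.5%.

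**Figure D2:**
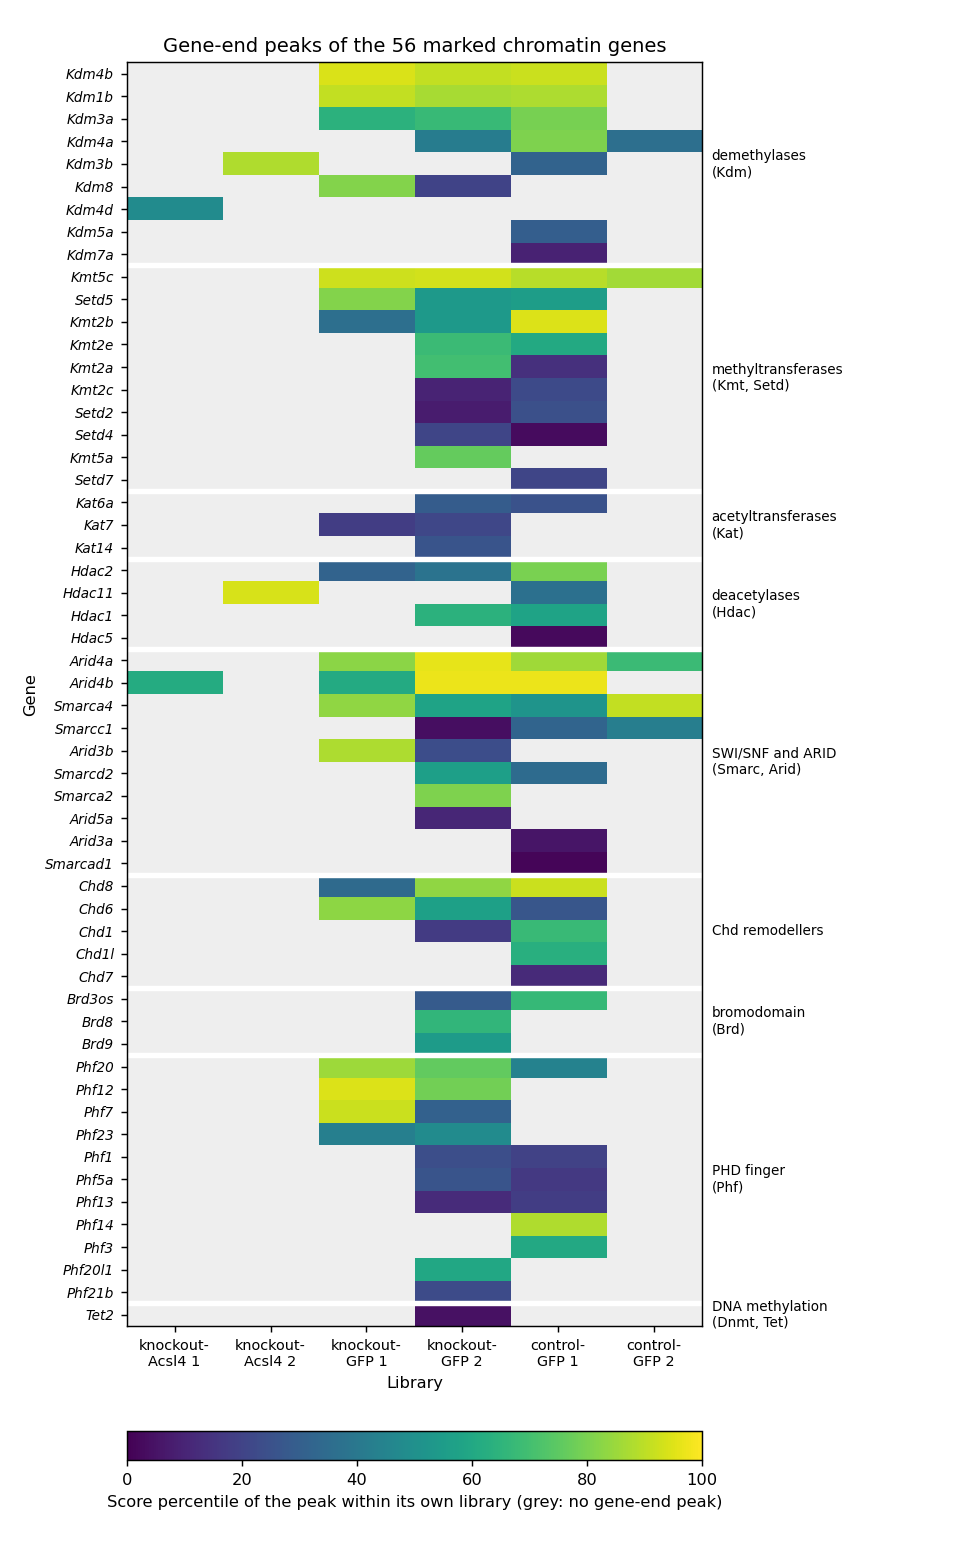
The 56 marked chromatin genes (rows, grouped by class) in the 6 libraries (columns). Colour gives the percentile of the gene's best peak score within the library's own list and grey means no gene-end peak; Kmt5c, Smarca4, Arid4a and Arid4b fill 4 columns each, and the knockout-Acsl4 columns hold 4 coloured cells.

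The 4 members marked in 4 libraries were a histone H4K20 methyltransferase, the SWI/SNF motor and a pair of Sin3 deacetylase complex subunits. Peak scores below are the authors' values, read as the −log10 of the caller's q-value, so that higher means stronger evidence for that peak in that library. Kmt5c, which di- and trimethylates H4K20 in silent chromatin, had scores of 10.6 and 16.7 in knockout-GFP and 15.4 and 5.05 in control-GFP, with overlapping peaks in chr7:4739680-4740165. Its peaks ranked between the 86.2 and 93.0 percentile of each list that held them, the steadiest standing of the 4. Smarca4, the BRG1 ATPase that drives SWI/SNF remodelling, had scores of 7.71 and 7.10 in knockout-GFP and 5.98 and 6.52 in control-GFP, in chr9:21615877-21616195. Those scores stood at percentile 83.3 and 58.0 of the knockout-GFP lists and 51.8 and 90.9 of the control-GFP lists. Neither Kmt5c nor Smarca4 had a gene-end peak in a knockout-Acsl4 library.

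Arid4a, a retinoblastoma-binding subunit of the Sin3 complex, had scores of 7.62 and 21.6 in knockout-GFP and 13.3 and 3.28 in control-GFP, in chr12:71015381-71015986. Its paralog Arid4b was the only member of the 4 with a knockout-Acsl4 peak, with a score of 5.23 in knockout-Acsl4 library 1, 4.98 and 24.4 in knockout-GFP and 28.7 in control-GFP library 1. The 24.4 and 28.7 of Arid4b were the highest member scores in their libraries, at percentile 96.9 in both. All 4 Arid4b peaks lay in chr13:14063215-14063855, a stretch that also meets the end of Ggps1, so the mark cannot be assigned to either gene alone.

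Demethylases, which strip methyl groups from histone lysines, had 9 of 15 members marked in at least 1 library (60%, beside 25.5% of all genes). Marked demethylases numbered 1 and 1 in knockout-Acsl4, 4 and 5 in knockout-GFP, and 7 and 1 in control-GFP. Class counts by library, here and below, stand beside the per-library shares of all genes given above, 1.08% to 18.2%. Kdm4b, an H3K9 and H3K36 demethylase, had scores of 13.1 and 15.2 in knockout-GFP and 18.1 in control-GFP library 1, with no peak in the second control-GFP library. Kdm1b, a flavin-dependent H3K4 demethylase, had 9.95 and 13.1 in knockout-GFP and 14.3 in control-GFP library 1, from a peak shared with the end of Tpmt. Kdm4b and Kdm1b stood at or above percentile 86.9 in every list that held them. Kdm3a, an H3K9 demethylase, had 5.28 and 8.42 in knockout-GFP and 10.8 in control-GFP library 1. Kdm4a, close kin of Kdm4b, had 5.52 in knockout-GFP library 2, and 11.2 and 2.20 in control-GFP. Kdm1a, the LSD1 H3K4 demethylase, had no gene-end peak, and the nearest peak of any library lay 80717 bp from its ends.

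The methyltransferases that write histone lysine methylation had 10 of 15 members marked (66.7%, beside 25.5% of all genes). That was the highest share of the 9 classes, but the order was not tested and 15 genes are too few to set this class above the others. Marked methyltransferases numbered 0 and 0 in knockout-Acsl4, 3 and 9 in knockout-GFP, and 9 and 1 in control-GFP. Kmt2b, an H3K4 methyltransferase of the COMPASS family, had scores of 3.47 and 6.70 in knockout-GFP and 22.1 in control-GFP library 1. That peak also meets the end of Zbtb32, and it stood at percentile 36.5 and 53.6 of the knockout-GFP lists and 94.9 of the control-GFP list. Setd5, a SET-domain protein, had 7.33 and 6.77 in knockout-GFP and 6.49 in control-GFP library 1, all at the outer gene end, with the centre in knockout-GFP library 1 at -28064 bp from its listed start. The H3K4 methyltransferase genes Kmt2a and Kmt2c, their relative Kmt2e and the H3K36 methyltransferase Setd2 were each marked in knockout-GFP library 2 and control-GFP library 1 and nowhere else. Kmt2d, Setd1a and Setd1b, from the same COMPASS family, were marked in none.

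**Figure D3:**
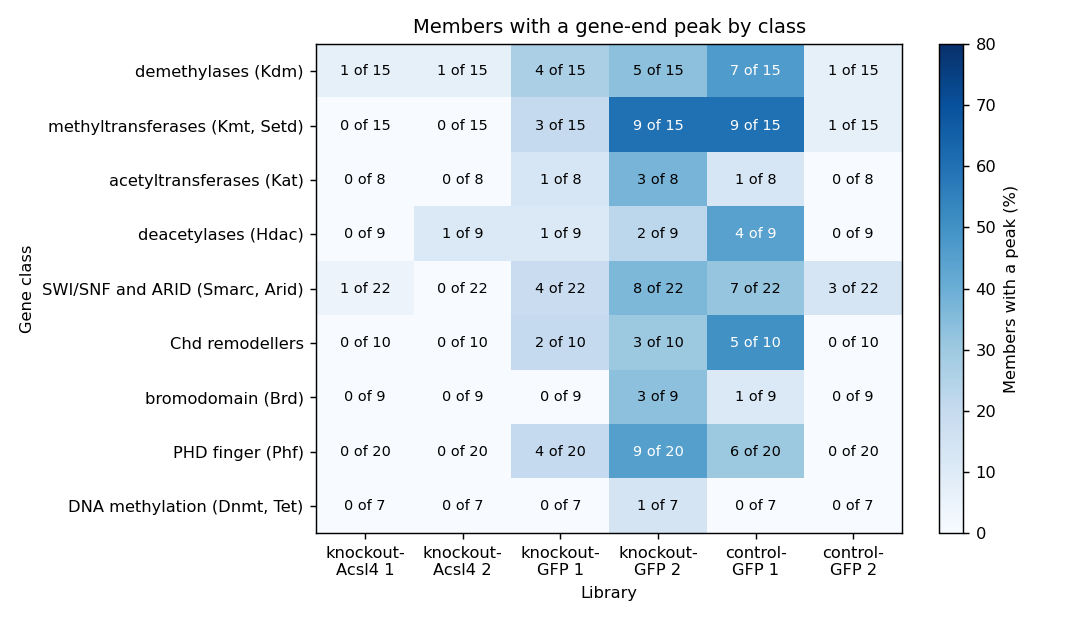
Members with a gene-end peak (number of class size in each cell, colour giving the %) for the 9 classes (rows) in the 6 libraries (columns). Methyltransferases reach 9 of 15 in knockout-GFP library 2 and in control-GFP library 1, beside 18.2% and 17.3% of all genes. DNA methylation genes have 1 of 7 in knockout-GFP library 2 and 0 elsewhere.

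Acetyltransferases, which open chromatin by acetylating histones, had 3 of 8 members marked (37.5%, beside 25.5% of all genes). They were Kat6a, Kat7 and Kat14, at 0 and 0 in knockout-Acsl4, 1 and 3 in knockout-GFP, and 1 and 0 in control-GFP. Kat6a, the MOZ enzyme, had scores of 4.31 in knockout-GFP library 2 and 3.66 in control-GFP library 1. Kat2b, the PCAF coactivator, was marked in none, with the nearest peak 6076 bp away. Among deacetylases 4 of 9 were marked (44.4%, beside 25.5% of all genes). Marked deacetylases numbered 0 and 1 in knockout-Acsl4, 1 and 2 in knockout-GFP, and 4 and 0 in control-GFP. Hdac2, a class I enzyme, had 3.19 and 5.10 in knockout-GFP and 10.9 in control-GFP library 1. Its partner Hdac1 had 7.86 in knockout-GFP library 2 and 6.76 in control-GFP library 1. Hdac11, the class IV enzyme, was 1 of the few knockout-Acsl4 marks, with 4.20 in knockout-Acsl4 library 2 and 4.57 in control-GFP library 1. Hdac3, the enzyme of the NCoR complex, was unmarked under the 1000 bp window and is described with the near misses.

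SWI/SNF and ARID genes had 10 of 22 members marked (45.5%, beside 25.5% of all genes). They numbered 1 and 0 in knockout-Acsl4, 4 and 8 in knockout-GFP, and 7 and 3 in control-GFP. The 3 in control-GFP library 2, Smarca4, Arid4a and Smarcc1, were 3 of the 5 members that library marked. Smarcc1, a scaffold subunit of SWI/SNF, had scores of 2.17 in knockout-GFP library 2, and 4.08 and 2.54 in control-GFP. Smarca2, the BRM ATPase that can take the place of Smarca4, had a peak of 11.1 in knockout-GFP library 2 and none elsewhere. The core genes Smarcb1, Smarce1, Smarcc2, Arid1a, Arid1b and Arid2 were marked in none. Of these, Smarcc2, Arid1a and Arid1b had peaks inside the gene, and those of Arid1a, described below, lay near a listed start site. Of 10 Chd remodellers 5 were marked (50%, beside 25.5% of all genes). Marked Chd genes numbered 0 and 0 in knockout-Acsl4, 2 and 3 in knockout-GFP, and 5 and 0 in control-GFP. Chd8, a remodeller that binds beta-catenin, had 3.36 and 11.7 in knockout-GFP and 17.7 in control-GFP library 1. Chd6 had 7.64 and 6.96 in knockout-GFP and 3.77 in control-GFP library 1. Chd1, which binds H3K4me3, had 3.20 in knockout-GFP library 2 and 8.16 in control-GFP library 1, whereas Chd3 and Chd4, the NuRD motors, were marked in none.

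PHD-finger genes, many of which read histone methylation, had 11 of 20 members marked (55%, beside 25.5% of all genes). Marked PHD-finger genes numbered 0 and 0 in knockout-Acsl4, 4 and 9 in knockout-GFP, and 6 and 0 in control-GFP. Phf20, a reader in an H4K16 acetyltransferase complex, had scores of 8.14 and 9.97 in knockout-GFP and 5.24 in control-GFP library 1. Genes with a Brd symbol, most of them for bromodomain readers of acetylated lysines, had 3 of 9 marked (33.3%, beside 25.5% of all genes). They numbered 0 and 0 in knockout-Acsl4, 0 and 3 in knockout-GFP, and 1 and 0 in control-GFP. They were Brd8 at 8.14, Brd9 at 6.78 and Brd3os at 4.22 in knockout-GFP library 2, with Brd3os at 8.01 in control-GFP library 1. The Brd8 peak also meets the end of Kif20a and the Brd9 peak that of Trip13, so neither mark can be assigned to the Brd gene alone. Brd3os, a gene distinct from Brd3, thus gave the only control-GFP mark of this class. Brd2 and Brd3 were marked in none.

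Some members had a gene-end peak in 1 library and in no other. Knockout-GFP library 2 alone marked Arid5a, Kat14, Tet2, Kmt5a, Brd9, Phf20l1, Phf21b, Brd8 and Smarca2, led by Smarca2 and by Kmt5a, the H4K20 monomethyltransferase, with a score of 10.1. Control-GFP library 1 alone marked Phf3, Setd7, Chd1l, Chd7, Phf14, Kdm7a, Smarcad1, Kdm5a, Arid3a and Hdac5, with scores between 1.40 and 14.6. The highest of these belonged to Phf14, from a peak that also meets the end of Ndufa4. Knockout-GFP library 2 and control-GFP library 1 together, and no other library, marked Hdac1, Brd3os, Phf1, Phf5a, Phf13, Kmt2a, Kmt2c, Kmt2e, Kat6a, Setd2, Setd4, Smarcd2 and Chd1, with scores between 1.67 and 8.80. Marks in knockout-GFP library 2 alone were held by 7.83% of members, beside 4.55% of all genes. For control-GFP library 1 alone the shares were 8.70% and 4.14%, and for this pair of libraries 11.3% and 5.48%. Phf5a is known as a splicing factor subunit rather than a chromatin enzyme.

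The 59 members marked in no library came from all 9 classes. Besides those named above and below they included the demethylase Kdm5b, the deacetylases Hdac7, Hdac9 and Hdac10, the acetyltransferases Kat2a and Kat8, and the methyltransferase Setd6. Genes with a Smarc, Arid or Chd symbol among them included Smarca5, Smarcal1, Smarcd1, Smarcd3, Arid3c, Arid5b, Chd2 and Chd5. The reader genes included Brd1, Brd7, Brd8dc, Phf2, Phf10, Phf21a, Phf24, Phf11a, Phf11b, Phf11c and Phf11d. Some of these, described further below, had peaks inside the gene.

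The DNA methylation class had 1 of 7 members marked (14.3%), the lowest share of the 9 classes, beside 25.5% of all genes, and 7 genes are too few to set it apart from that share. Tet2, an oxidase of 5-methylcytosine, had a peak of 2.30 in knockout-GFP library 2, at percentile 4.65 of that list, and in no other library. Dnmt1, which copies methylation at replication, Dnmt3a and Dnmt3b, which lay it down, Dnmt3l, their cofactor, and the oxidases Tet1 and Tet3 had no gene-end peak in any library. The difference between classes was not tested.

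The genotype question is whether loss of Rictor altered peaks at these genes. A set of 6 members was marked in knockout-GFP libraries 1 and 2 but not in either control-GFP library, and 0 showed the opposite pattern. The 6 are 5.22% of members, where 1.1% of all genes had the pattern; among genes marked in both knockout-GFP libraries they are 6 of 19, where 15.7% of all such genes had it. For the opposite pattern the figures were 0 of 5 members marked in both control-GFP libraries, beside 0.0968% of all genes and 5.75% of those marked in both control-GFP libraries. Control-GFP library 2 had few gene-end peaks, so the first pattern rested in practice on absence from control-GFP library 1. With control-GFP library 1 left out the count was 16, and with knockout-GFP library 1 left out it was 15. Without knockout-GFP library 2 or without control-GFP library 2 it was 6. With control-GFP library 2 left out, 12 members were marked in control-GFP library 1 and in neither knockout-GFP library, and without knockout-GFP library 2 the opposite pattern held 2. No share over all genes is given for these counts with a library left out, so they cannot be read as particular to the members. For a single gene an exact test of 2 libraries against 2 cannot go below p = 0.333, so no p is given per gene.

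Phf12, a PHD-finger subunit that recruits the Sin3 deacetylase complex, led the 6 with scores of 13.8 and 10.7 in knockout-GFP and no peak in control-GFP. Phf7, a histone H3 reader known from mouse male germ cells, had 10.6 and 4.53 in knockout-GFP, from a peak that also meets the end of the deubiquitinase gene Bap1. Arid3b, an AT-rich DNA-binding protein, had 8.66 and 3.93 in knockout-GFP. Kdm8, a JmjC-domain oxygenase, had 7.34 and 3.62 in knockout-GFP. Phf23 had 3.88 and 5.99 in knockout-GFP, from a peak shared with the end of the autophagy gene Gabarap. Kat7, the HBO1 acetyltransferase of H3K14 and H4, had 2.59 and 3.73 in knockout-GFP, the weakest of the 6. Phf12, Phf7 and Arid3b reached at least percentile 87.6 of knockout-GFP library 1, and of these Phf12 alone was above percentile 31.0 in knockout-GFP library 2. With every list restricted to its better 50% by score, 3 members had the pattern (beside 0.682% of all genes): Phf12, and Phf20 and Chd6, whose peaks in control-GFP library 1 then dropped out. With all lists cut to 525 peaks, 0 members had it, beside 0.261% of all genes.

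Acsl4 was delivered to knockout islets to ask what it changes on top of the deletion. Of 19 members marked in both knockout-GFP libraries, 18 were marked in neither knockout-Acsl4 library, and the pattern held for 6.12% of all genes and for 87.6% of all genes marked in both knockout-GFP libraries. Read against that 87.6%, the 18 of 19 are near the background. Kdm4b, Kmt5c, Arid4a, Kdm1b, Phf12, Phf20, Smarca4, Chd6, Setd5 and Kdm3a had the highest mean percentiles among the 18, with the scores given above. The exception was Arid4b, through knockout-Acsl4 library 1. The opposite pattern, marked in both knockout-Acsl4 libraries and in neither knockout-GFP library, held for 0 members, for 0.00968% of all genes and for 16.7% of the 12 genes marked in both knockout-Acsl4 libraries. Without knockout-GFP library 1 the 18 became 42, a count for which no share over all genes is given. Cutting all lists to 525 peaks left 3, beside 0.503% of all genes.

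Knockout-Acsl4 was also set against control-GFP. All 5 members marked in both control-GFP libraries, Kmt5c, Arid4a, Smarca4, Kdm4a and Smarcc1, were marked in neither knockout-Acsl4 library. That pattern held for 1.4% of all genes and for 83% of all genes marked in both control-GFP libraries. The opposite pattern held for 0 members, for 0.00484% of all genes and for 8.33% of the genes marked in both knockout-Acsl4 libraries. Without control-GFP library 2 the 5 became 37, again with no share over all genes given. Any pair of the 3 comparisons shares a group of libraries, so they are not separate evidence.

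The knockout-Acsl4 libraries marked 4 members between them and none in common. Knockout-Acsl4 library 1 marked Arid4b and Kdm4d, an H3K9 demethylase with a score of 3.74 from a peak shared with the end of Cwc15. Knockout-Acsl4 library 2 marked Hdac11 and Kdm3b, an H3K9 demethylase with 3.32 there and 4.01 in control-GFP library 1. The Kdm3b peaks of those libraries did not overlap. When peaks meeting ends of more than 1 gene were set aside, knockout-Acsl4 library 1 marked 0 members, beside 0.702% of all genes, and 0 of 115 allows a share of up to 2.61%.

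Where strand was known, every gene-end peak of a member lay at the start of the gene. RefSeq start sites were at hand for 89 of 115 members, and 41 of these were marked, through 87 peaks. All 87 were at the start end and 0 at the far end. The centre lay within 300 bp of a listed start for 74 of the 87, with a median position of -100.5 bp, where negative means upstream, and 41 peaks (47.1%) covered a listed start base. These positions were not counted for all genes, so they are not shown to be particular to the members. Peaks of different libraries fell on the same DNA. Of 36 members marked in at least 2 libraries, 33 had 1 region overlapped by a peak of every marking library, and the exceptions were Smarcc1, Phf1 and Kdm3b. Of the 56 marked members, 15 had a peak that also met the end of another gene.

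**Figure D4:**
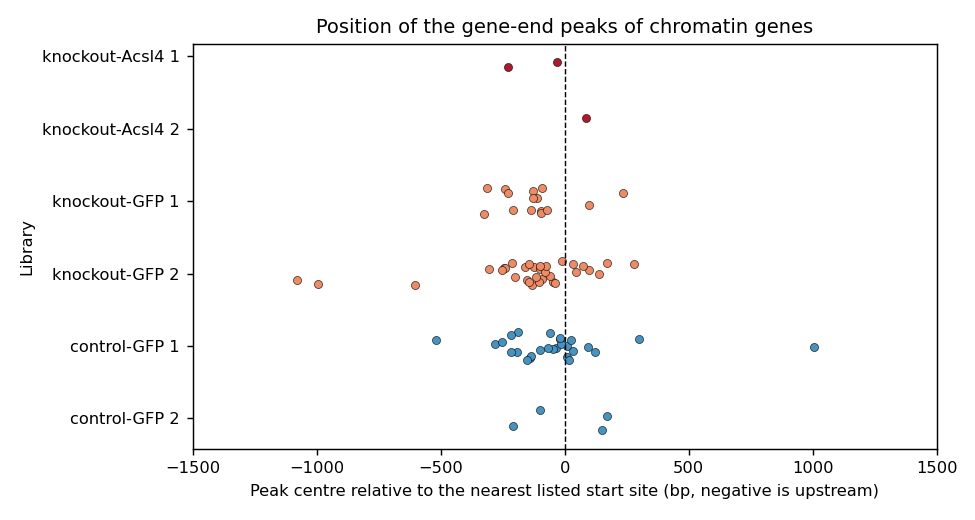
Distance from the centre of each gene-end peak to the nearest listed start site (x axis, bp, negative upstream) by library (y axis); each point is 1 peak of a member with known strand. Most points lie just left of the dashed line at the start site, with a median of -100.5 bp; 3 Setd5 and 2 Smarcd2 peaks fall outside the range drawn.

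The standing of the members' peaks differed between lists. In knockout-GFP library 1 the median best score of the 19 members was 7.62, percentile 82.7 of that list, against 4.53 and percentile 53.3 for all its gene-end peaks. In knockout-GFP library 2 the median of 43 members was 6.70, percentile 53.6, against 6.54 and percentile 52.2. In control-GFP library 1 the median of 40 members was 4.90, percentile 40.8, against 6.34 and percentile 54.3. In control-GFP library 2 the median of 5 members was 3.28, percentile 68.1, against 2.97 and percentile 64.5. The members thus sat far up the list in knockout-GFP library 1 and near or below the middle of the lists of knockout-GFP library 2 and control-GFP library 1, a difference that was not tested. When each list was cut to its best 525 peaks, 12 members stayed marked in knockout-GFP library 1 (10.4%, beside 2.00% of all genes) and 4 in knockout-GFP library 2 (3.48%, beside 2.03%). In control-GFP 5 stayed marked in library 1 (4.35%, beside 2.01%) and 3 in library 2 (2.61%, beside 0.929%).

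Several unmarked members had peaks inside the gene or just past the window. The marked members farthest from a gene end were Setd4, whose nearest peak edge was 749 bp away, and Tet2, at 728 bp. Just outside the window were Kdm2a at 1165 bp, Kat6b at 1188 bp, Hdac3 at 1244 bp, Kdm6b at 1307 bp, Kmt5b at 1416 bp and Kat5 at 1487 bp. With a window of 3000 bp Kat6b would be marked in 4 libraries, Kdm2a and Hdac3 in 3 each, and the marked members would number 64 (55.7%, beside 29.7% of all genes). Peaks inside the gene and away from its ends were found in 25 of 114 members long enough to hold one, of which 19 had no gene-end peak, and 40 members had neither. In this measure the second knockout-Acsl4 library was not low. Members with such a peak made up 0.877% and 9.65% in knockout-Acsl4, 6.14% and 11.4% in knockout-GFP, and 12.3% and 6.14% in control-GFP, beside 0.566% and 9.02%, 1.77% and 3.05%, and 3.54% and 2.36% of all genes in those libraries. Members are long, with a median of 47.2 kb when marked and 42.4 kb when not, against 17.5 kb for all genes, and the part of length in the share with inner peaks was not tested.

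Some of these inner peaks recurred at 1 place, for Kat6b, Hdac4, Kdm4c, Arid1a and Smarcal1 near a listed start site inside the gene. Kat6b, the MORF acetyltransferase, had peaks of 6.63 and 13.6 in knockout-GFP and 15.1 and 4.04 in control-GFP, all within chr14:21500404-21501212 and within 1000 bp of a listed start. Hdac4, a class IIa deacetylase, had 6.34 and 19.4 in knockout-GFP and 9.60 in control-GFP library 1 within chr1:92180279-92180874, again at a listed start. Phf19, a Polycomb-associated reader of H3K36 methylation, had 5.86 and 10.1 in knockout-GFP and 29.5 and 2.21 in control-GFP, and no start is listed near those peaks. Kdm4c, a demethylase related to Kdm4a, had 7.28 in knockout-GFP library 2 and 10.3 in control-GFP library 1 at an inner listed start. Arid1a had 2.05 in knockout-GFP library 2 and 4.48 in control-GFP library 1, and Smarcal1 had 2.85 and 4.16 in those libraries. The Arid1a and Smarcal1 peaks lay within 1000 bp of an inner listed start, as did peaks of Brd3, Kat5, Kdm2b and Kmt5b in 1 library each. No start is listed near the shared Chd9 peaks, which scored 3.28 in knockout-Acsl4 library 1, 5.37 and 11.0 in knockout-GFP, and 4.88 in control-GFP library 1. Counting listed start sites alone, and no outer gene ends, 48 of 89 members (53.9%) were marked in at least 1 library, beside 27.1% of all 16457 genes with a listed start.

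Promoters of marked members were mostly rich in CpG. The 89 members with listed starts had 126 promoter windows of 300 bases. The windows of marked members, 51 in 41 genes, had a median GC content of 65.3% and a median observed over expected CpG ratio of 0.839, and 90.2% of them exceeded a ratio of 0.6. The windows of unmarked members, 75 in 48 genes, had medians of 64% and 0.795, and 68% exceeded 0.6. All 20085 listed windows had medians of 57% and 0.586, and 48.9% exceeded 0.6. A peak of any library overlapped 78.4% of the windows of marked members, 9.33% of those of unmarked members and 22.1% of all windows. Marking is itself defined by a peak near a gene end, so that contrast follows largely from the definition and is no separate result. Genes with several listed starts give several windows, so windows are not independent, and no test was made.

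**Figure D5:**
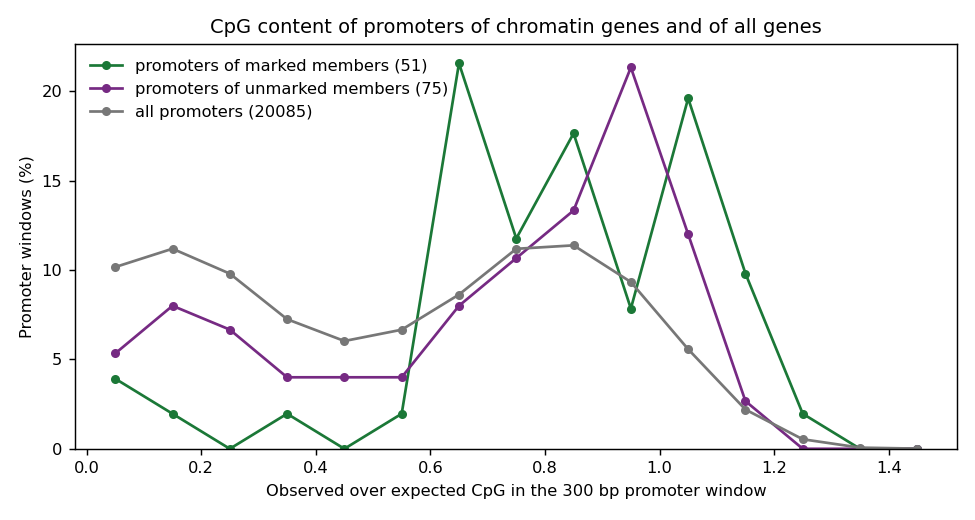
Observed over expected CpG ratio of 300 bp promoter windows (x axis, in steps of 0.1) against the share of windows (y axis, %) for marked members (51 windows), unmarked members (75 windows) and all listed promoters (20085 windows). Marked members lie mainly above 0.6, whereas 48.9% of all promoters do.

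Among motifs, the GC box was present in 74.5% of the windows of marked members, 66.7% of those of unmarked members and 47.0% of all windows. The ETS site was in 21.6%, 5.33% and 11.9%, and the CCAAT box in 43.1%, 21.3% and 38.1%. The NRF1 core was in 5.88%, 6.67% and 3.55%. The TATA box was in 1.96%, 4% and 12.7%, and the E box in 3.92%, 5.33% and 7.89%. The YY1 site was in 0%, 4% and 1.83%, and the cyclic AMP response element in 0%, 0% and 2.30%. These shares describe letters in the windows, and the 4 ETS matches among 75 windows of unmarked members are too few to rank.

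Other chromatin regulators, taken from a list of 157 subunits and enzymes outside the symbol rule, were marked at similar shares, which sets the members in context. Of the 157, 3 and 4 were marked in knockout-Acsl4, 35 and 73 in knockout-GFP, and 59 and 7 in control-GFP. In at least 1 library 85 were marked (54.1%, beside 25.5% of all genes). PRC2 genes, which methylate H3K27, had 7 of 9 marked and other acetyltransferase genes and subunits 18 of 24. COMPASS subunits had 3 of 9 and other SWI/SNF subunits 5 of 15. Marks in 4 libraries were found for Ash1l, Brpf1, Cbx3, Cbx5, Prmt1, Sap130 and Trim24, where 1.71% of all genes had 4 or more. Bap1, Ing4, Msl2 and Paxip1 were marked in knockout-GFP libraries 1 and 2 but in no control-GFP library. They are 2.55% of the 157, where 1.1% of all genes had that pattern, and the Bap1 peak is the one that also marks Phf7. Riox2 showed the opposite pattern (0.637% of the 157, beside 0.0968% of all genes).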

How the data were processed

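Peak lists of 6 ATAC-seq libraries were used, each taken as called on its own library. The authors' peak caller gave each deposited peak a value taken here as a −log10 q-value, since no list goes below 1.30 (q of 0.05) and no column name states the unit. Per the submitters' processing notes, the tools were MACS2 2.1.1, BWA 0.7.10, SAMtools, Trimmomatic and FastQC, with no roles or settings stated. Those notes give human builds although the organism is mouse; positions were treated as GRCm38, 1-based. Scores were ranked within a list only. No source used here gives depth, so the number of peaks limits precision. Lists differ in length, and a gene without a peak may be accessible below the caller's threshold.

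Gene ends, start sites and promoters came from RefSeq tables of GRCm38.p6, and strand was known for 89 of 115 members. Counts were made with Python 3.11.15 and pandas 2.3.3, checked on simulated peaks, and exact permutation tests with numpy 2.4.6. Intervals are 95% Clopper-Pearson from scipy 1.17.1, and a count of 0 was taken to allow 3. The members and the gene and marker lists were chosen with earlier results of these data known. Named genes were those marked in at least 4 libraries, those with a pattern confined to a group (up to 10 by mean score percentile), the leading 3 of each class, a set of well-known enzymes, and the unmarked. Body peaks, near misses and other class members were named after their values were seen, and not every member is reported by name here. Same replicate numbers did not deviate together. Alternatives were windows of 500 and 3000 bp, 50% of the peak inside, the better 50% of peaks, equal list lengths, peaks of 1 gene, gene starts alone, a replicate block and leaving out each library.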

Additional observations from a re-analysis of the deposited data

How the results depend on the processing

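Knockout-GFP minus control-GFP in the share of members marked was 7.39 points, ranged between -7.83 and 22.6 points when each library was left out in turn, and turned negative without knockout-GFP library 2 or control-GFP library 2. The knockout-Acsl4 differences stayed negative under all alternatives run; with a library left out they ranged between -35.7 and -14.8 points against knockout-GFP, and between -33.0 and -2.61 points against control-GFP, the last without control-GFP library 1. With the better 50% of peaks the 3 differences were 6.09, -14.3 and -8.26 points for knockout-GFP minus control-GFP, knockout-Acsl4 minus knockout-GFP and knockout-Acsl4 minus control-GFP, and at equal list lengths they were 3.48, -5.65 and -2.17 points. The number of peaks per library and the score threshold limit every count, and the cause of each move below was not tested.

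Members marked in knockout-GFP only, against control-GFP, were 6, against 3 with the better 50% of peaks and 0 at equal list lengths, and 6 to 16 with a library left out. Over all genes the shares were 1.1% with the full lists, 0.682% with the better 50% and 0.261% at equal lengths. No share over all genes is given for counts with a library left out. Members marked in control-GFP only, against knockout-GFP, were 0 (beside 0.0968% of all genes) and 0 to 12 with a library left out. With a 3000 bp window there was 1, Kdm6b, beside 0.135% of all genes. Against knockout-Acsl4, the 18 members of knockout-GFP only became 10 with the better 50% and 3 at equal lengths, and 18 to 42 with a library left out. Over all genes the shares were 6.12% with the full lists, 3.14% with the better 50% and 0.503% at equal lengths. The 5 of control-GFP only became 3 and 1, and 5 to 37, where the shares of all genes were 1.40%, 0.861% and 0.305%. Members marked in knockout-Acsl4 only were 0, and with a library left out 0 to 2 against knockout-GFP and 0 to 1 against control-GFP. At equal lengths each list holds 525 peaks, which by construction leaves fewer members.

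Members marked in at least 1 library were 56 (48.7%, beside 25.5% of all genes). They were 34 with the better 50% (29.6%, beside 15.2% of all genes) and 17 at equal lengths (14.8%, beside 5.28%). They were 64 at 3000 bp (55.7%, beside 29.7%), 54 at 500 bp (47.0%, beside 23.6%) and 41 with peaks of 1 gene (35.7%, beside 17.6%). These alternative counts and the crossed pairing were added after seeing the data.

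With the replicate number as a block the differences were unchanged at 7.39, -25.2 and -17.8 points, with exact paired permutation p of 1, 0.5 and 0.5. Deviations of same-numbered libraries correlated at -0.282 between knockout-GFP and control-GFP over 20665 genes, at -0.000191 between knockout-Acsl4 and knockout-GFP, and at 0.0605 between knockout-Acsl4 and control-GFP. Pairing crossed numbers gave p of 0.5 in the same paired test for knockout-GFP against control-GFP, again the smallest possible. The block changed no count.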
